A study of Bos taurus with 30 samples.

Results

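Bovine endometrial epithelial cells that had received 1 ng/mL insulin were compared with epithelial cells that had received only the vehicle, across genes. The 6 libraries, 3 of each group, were chosen by their labelled cell type and treatment out of 30 libraries in the series, and a library at 1 ng/mL was paired with the vehicle library of the same replicate number. The primary cells came from the uteri of nonpregnant cows (Bos taurus) in the early luteal phase and were purified in culture by how fast they attached. Epithelial cells grew in the upper chamber of a microfluidic device, above stromal cells on the other side of a porous membrane, and both groups were perfused for 72 hours at 1 µL/min with RPMI medium holding 5 mM glucose. The vehicle was acetic acid in phosphate-buffered saline, and the treated group received 1 ng/mL insulin. The study does not state whether the treated medium also held this solvent. Libraries at 10 ng/mL insulin and the stromal cells of the same doses (3 libraries each) are used only for comparison. The study calls the replicates biological, but neither it nor the labels say whether they are animals. The p-values below measure the spread of the differences within replicate numbers of these samples. That spread is in part borrowed from other genes, so it can be smaller than the spread of a gene's own pairs.

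Insulin binds its receptor INSR and, more weakly, the related receptor IGF1R, and signals through the IRS adaptors and phosphoinositide 3-kinase to the kinase AKT. AKT holds the FOXO transcription factors out of the nucleus, which lowers the transcripts that FOXO drives, and favors fatty acid synthesis through SREBF1. Interferon-response genes are antiviral genes that type I interferons switch on through a complex that holds STAT2 and IRF9. In ruminants the same genes are known as the endometrial answer to interferon tau, the signal of the early conceptus, which was not part of this device.

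No gene passed the test for a difference between 1 ng/mL insulin and vehicle. The 5 genes beyond 1.5-fold among the 10319 with a mean of at least 5 CPM (a gene's reads relative to all counted reads of its library) were all lower at 1 ng/mL, and all 5 were interferon-response genes, namely OAS1X, RSAD2, IFIT2, ISG15 and MX2. For 4 of the 5 the difference was largest between the libraries of replicate 3, and for MX2 it was largest in replicate 1. In replicate 2 the 5 differences lay between -0.19 and 0.18 on the log2 scale. The receptors, the AKT branch and the lipid synthesis genes of the insulin pathway differed by less than 1.5-fold in either direction.

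The 6 libraries held 9678779 to 12754316 counted reads (median 10661682) in the vehicle group and 10055884 to 11388528 (median 10058992) at 1 ng/mL. A count of 0 therefore allows a level of up to 0.31 CPM in the smallest library, for counting error only. The cell type was checked with lists of marker genes. The 30 epithelial markers summed to 10959 to 12251 CPM, against 51.8 to 503 CPM in the stromal libraries of the same doses. KRT18, the keratin used to identify the cells, stood at 443 to 965 CPM in the epithelial libraries. The 31 matched stromal markers summed to 1390 to 4992 CPM in the epithelial libraries and to 57308 to 87315 CPM in the stromal ones. VIM, the stromal marker that the study stained for, stood at 573 to 702 CPM in the epithelial libraries, so this gene was not low there. In the epithelial libraries the stromal sum followed the replicate number, with 2238, 1390 and 4992 CPM in vehicle replicates 1, 2 and 3 and 2311, 1471 and 4597 CPM in the corresponding libraries at 1 ng/mL. Of the 8 matched immune markers, none was at 0 in all 6 libraries, and their sum was 240 to 429 CPM in the vehicle group and 242 to 418 CPM at 1 ng/mL, nearly all of it from LCP1, an actin-bundling protein, at 232 to 425 CPM.

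The replicate number set the libraries apart and the insulin dose did not. On the plot of the first components, the vehicle and 1 ng/mL libraries of one number lay side by side, with 54.6% and 32.6% of the variance on the first and second components, which separated the 3 numbers. The root mean square distance between libraries, taken per gene on the log2 CPM scale, was 0.278 ± 0.0194 (SD, n = 3 pairs) between both doses of one replicate number, and 0.657 ± 0.0582 (SD, n = 6 pairs) between replicates of one dose. No p-value is given for these distances, since an exact sign-flip test of 3 pairs cannot go below 0.25. The differences described below are therefore taken within replicate numbers.

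**Figure D1:**
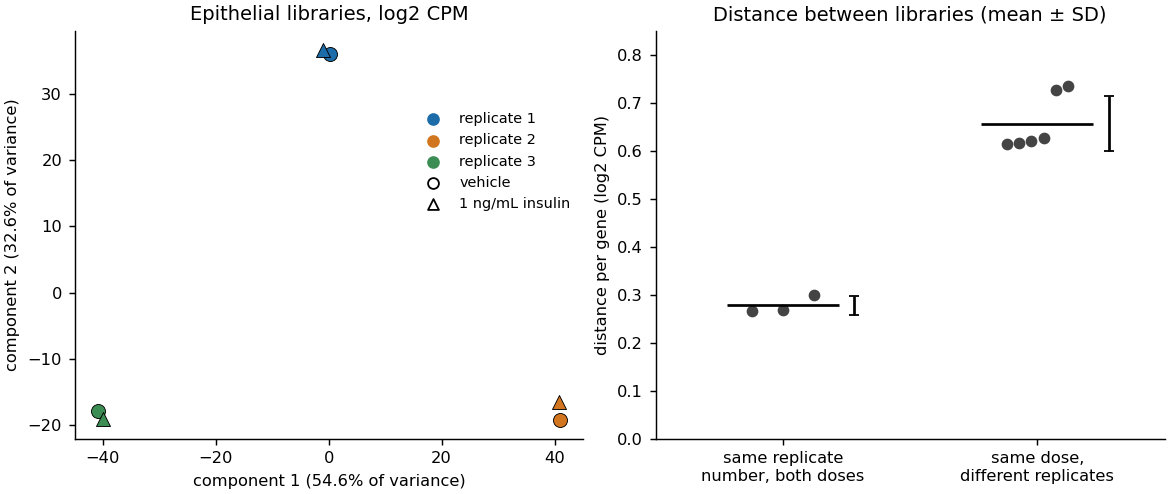
Left, the 6 epithelial libraries on the first (54.6% of the variance) and second (32.6%) principal components of log2 CPM, with color for the replicate number, circles for vehicle and triangles for 1 ng/mL insulin. Right, the distance between libraries per gene (log2 CPM) for the 3 pairs of one replicate number and the 6 pairs of one dose, with the mean as a line and the SD as a bar, at 0.278 ± 0.0194 and 0.657 ± 0.0582. Libraries of one number lay closer to each other than libraries of one dose.

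Of 27607 genes counted, 13368 had enough reads to be tested, 12816 of them protein coding. At an adjusted p under 0.05 and a log2 fold change beyond 0.1, 0 genes (0% of those tested) were called by edgeR's quasi-likelihood test with the replicate number as a block, and the smallest adjusted p was 0.273. The Wald test of DESeq2 also called 0 genes. At an unadjusted p under 0.05 and the same limit on the fold change, which holds for every count at that p below, 198 genes (1.48%) were higher and 206 (1.54%) lower at 1 ng/mL in the edgeR test, and 14 genes passed in the DESeq2 test. Regardless of the test, 1544 genes (11.5%) were higher and 1484 genes (11.1%) lower at 1 ng/mL in 3 of 3 pairs. The median log2 fold change over all genes was 0.00043, and 5th and 95th percentiles of -0.27 and 0.23 enclosed most genes. The replicates of each group were separate libraries, since the chi-square per degree of freedom between them was 23.4 to 36.4, where sampling noise alone gives a value near 1.

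**Figure D2:**
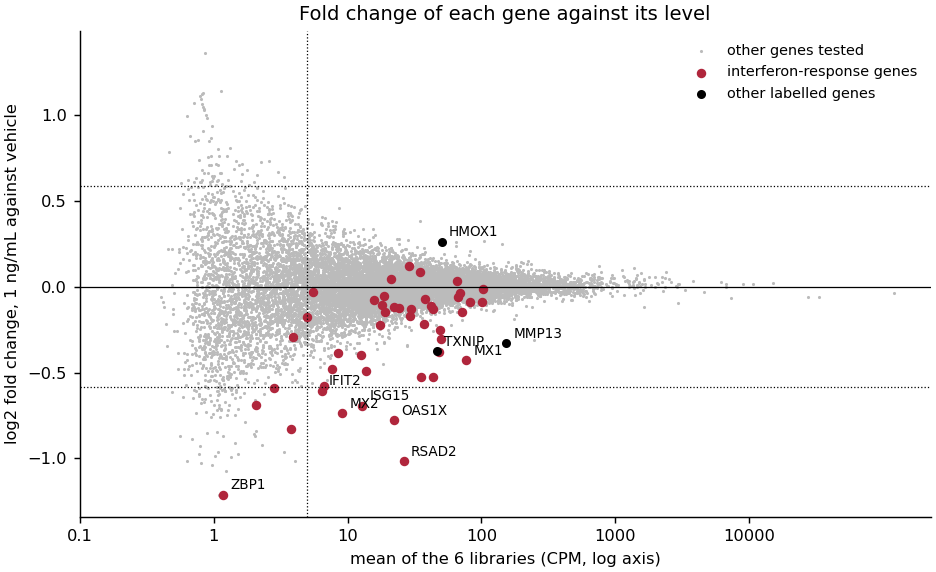
The log2 fold change between 1 ng/mL insulin and vehicle (vertical axis) against the mean of the 6 libraries (horizontal log axis, CPM) for the 13368 genes tested, with 46 interferon-response genes in red and 3 other labelled genes in black. The dotted lines mark a 1.5-fold difference and 5 CPM, and the 5 genes beyond both lines are OAS1X, RSAD2, IFIT2, ISG15 and MX2, all lower at 1 ng/mL.

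Of 50 symbols on the interferon-response list, 46 were genes with enough reads to be tested, and 0 of them were called. The list was chosen with earlier results of these data known, so its shares beside all genes are given as a description. An unadjusted p under 0.05 was reached by 20 of the 46 (43.5%), all of them lower at 1 ng/mL, beside 1.54% of all genes in that direction. The list had a median log2 fold change of -0.20, with 42 members below 0 and 4 above, beside a median of 0.00043 over all genes. In 3 of 3 pairs, 15 of the 46 were lower (32.6%, beside 11.1% of all genes) and 0 were higher (beside 11.5%). The median difference of the 46 genes within a pair was -0.18 in replicate 1, 0.05 in replicate 2 and -0.55 in replicate 3. At 1 ng/mL 38 members were lower in replicate 1, 19 in replicate 2 and 43 in replicate 3. Of the 20 genes with an unadjusted p under 0.05, 19 had their largest difference in replicate 3. Summed over the list, the level went with the single libraries, at 1375, 1560 and 1698 CPM in vehicle replicates 1, 2 and 3 and at 1298, 1647 and 1131 CPM at 1 ng/mL. The libraries at 10 ng/mL had 1396, 1437 and 1569 CPM. Replicate 3 at 1 ng/mL was thus the lowest of these 9 libraries, and the groups overlapped. In bulk samples, fewer responding cells and less of these transcripts in each cell cannot be told apart.

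Among these genes, the oligoadenylate synthetases make the messenger that starts RNA decay by RNase L. OAS1X (ENSBTAG00000053807), which had the smallest p of all genes, stood at 18.3, 11.3 and 56.2 CPM in vehicle replicates 1, 2 and 3 and at 14.6, 9.92 and 22.1 CPM at 1 ng/mL. It was lower in each pair, although the groups overlapped, and the vehicle library of replicate 3 stood above the other 5. Its log2 fold change was -0.78 (standard error, SE, 0.143, unadjusted p = 2.04e-05, adjusted p = 0.273 in edgeR's quasi-likelihood test). The value was -0.29 without replicate 3 and -0.95 without replicate 1 or without replicate 2. At 10 ng/mL, OAS1X had 16.04, 7.02 and 59.3 CPM, so that replicate 3 was back near its vehicle level. OAS1X, OAS1Y and OAS1Z are copies of one ancestral gene, and their uniquely mapped reads may be split between them, so the level of each is uncertain.

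RSAD2 (ENSBTAG00000016061), which encodes viperin, an antiviral enzyme of the endoplasmic reticulum, had 16.1, 40.9 and 47.0 CPM in the vehicle libraries and 11.5, 36.4 and 5.17 CPM at 1 ng/mL. The difference was small in replicate 2 and largest in replicate 3, with pair differences of -0.52, -0.16 and -3.11 on the log2 scale. The fitted log2 fold change was -1.02 (SE 0.267, adjusted p = 1.00 in edgeR's test), and -0.29 without replicate 3. IFIT2 (ENSBTAG00000034918), of the family that binds foreign RNA, had 3.53, 8.47 and 11.4 CPM in the vehicle libraries and 3.18, 7.38 and 4.57 CPM at 1 ng/mL, with a log2 fold change of -0.60 (SE 0.192, adjusted p = 1.00), or -0.20 without replicate 3. Its relative IFIT5 (ENSBTAG00000017367) was the member with the most even differences. It had 46.7, 54.6 and 64.7 CPM in the vehicle group and 38.3, 47.8 and 48.3 CPM at 1 ng/mL, with pair differences of -0.33, -0.19 and -0.40. Its log2 fold change was -0.31 (SE 0.065, adjusted p = 0.389 in edgeR's test) and lay between -0.37 and -0.26 when 1 replicate was left out, and of these fits only the one without replicate 2 called it. The kinase EIF2AK2 (ENSBTAG00000008703), which stops translation when it meets double-stranded RNA, had 49.5, 54.9 and 54.7 CPM against 46.4, 52.2 and 35.8 CPM, and only the replicate 3 library stood out.

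The other members shown were picked after their values were seen. ISG15, a ubiquitin-like modifier, had 13.7, 15.2 and 18.2 CPM in the vehicle group and 9.25, 17.1 and 3.58 CPM at 1 ng/mL, with a log2 fold change of -0.69 (SE 0.230, adjusted p = 1.00). MX2, a dynamin-like antiviral GTPase, had 6.74, 14.7 and 11.8 CPM in the vehicle group and 1.49, 16.3 and 3.78 CPM at 1 ng/mL, with a log2 fold change of -0.74 (SE 0.246, adjusted p = 1.00). Both were higher at 1 ng/mL in replicate 2 and lower in the other two. MX1, the related GTPase, had 103, 56.7 and 106 CPM against 85.2, 59.5 and 51.8 CPM, a log2 fold change of -0.43 (SE 0.109, adjusted p = 1.00). IFIT1 had 33.6, 42.4 and 49.3 CPM against 24.7, 43.6 and 20.1 CPM, a log2 fold change of -0.53 (SE 0.137, adjusted p = 1.00). These followed the same order of pairs as ISG15. ZBP1, a sensor of Z-form nucleic acid, had the largest difference of the list and of all genes tested in that direction, at -1.21 (SE 0.359, adjusted p = 1.00), but its level was 0.398 to 2.43 CPM, close to the level that a count of 0 allows.

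Among the genes that carry the interferon signal itself, STAT2 had a log2 fold change of -0.13 (SE 0.0700) and IRF9 of -0.13 (0.0999), neither with an unadjusted p under 0.05. IRF7, a further regulator of the response, had -0.01 (0.0541) and IRF1 had 0.04 (0.0869). The antigen processing genes TAP1, PSMB8 and PSMB9, which the list also holds, had 0.12 (0.0792), 0.09 (0.0755) and -0.031 (0.177). The call on this gene group depended on the libraries and the filter. The interferon-response list held 46 of the 13368 genes tested with all replicates. Without replicate 2, 17 of the 33 genes called were on the list, and without replicate 1, 9 of 25 were, among them RSAD2 and OAS1X in both cases. A fit with 1 replicate left out has 1 residual degree of freedom. Without replicate 3, 0 of the 6 genes called were on the list, and the list median was -0.06. When every gene with at least 1 count was tested, 11 of 22 genes called were on it. The immune markers, as a sum, had 429, 240 and 266 CPM in vehicle replicates 1, 2 and 3 and 418, 242 and 258 CPM at 1 ng/mL. Mitochondrial ribosomal RNA took 18.3%, 15.9% and 12.7% of the counts in the vehicle libraries and 16.5%, 15.3% and 13.6% at 1 ng/mL, and the part of RNA composition in the result was not tested.

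**Figure D3:**
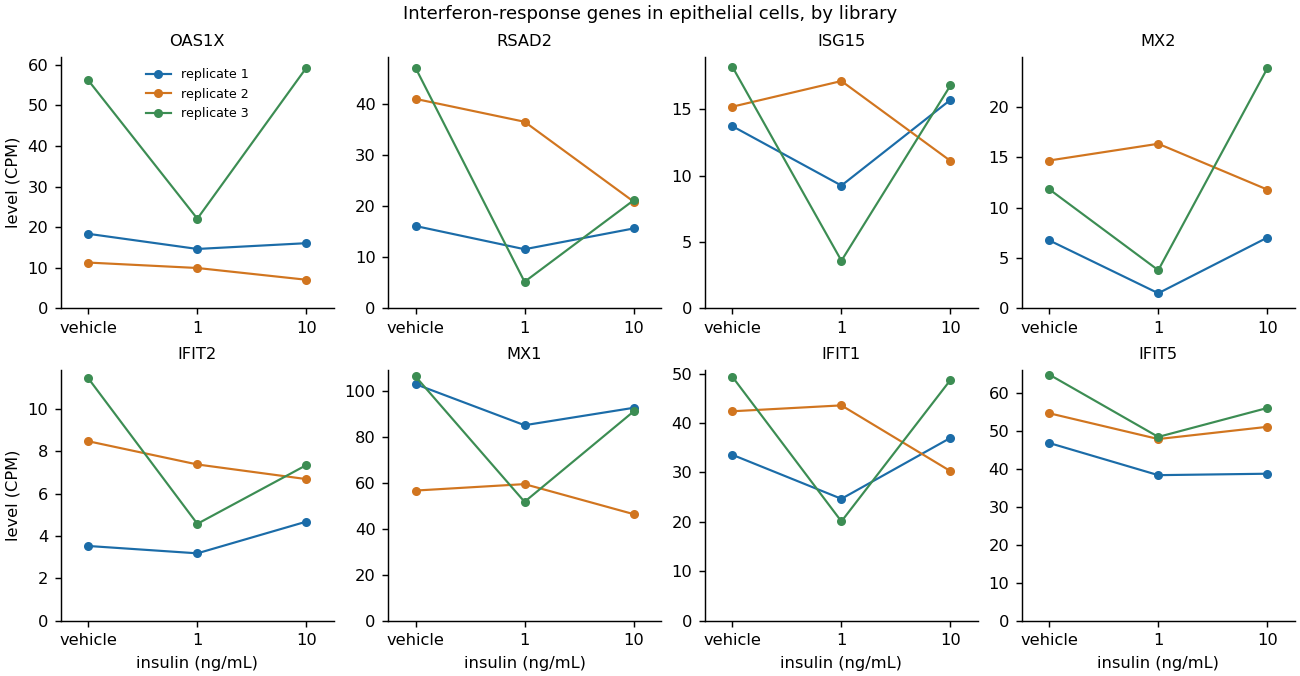
The level (CPM, axis from 0) of 8 interferon-response genes in the 9 epithelial libraries, in vehicle and at 1 and 10 ng/mL insulin, with 1 line for each replicate number. In replicate 3 all 8 genes were lower at 1 ng/mL than at both other doses, while in replicate 2 ISG15, MX2, MX1 and IFIT1 were slightly higher at 1 ng/mL than in vehicle.

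Across the 3 dose libraries of replicate 3, the library at 1 ng/mL was the lowest in 42 of the 46 interferon-response genes (91.3%), beside 37.3% of all genes tested. The corresponding counts were 27 of 46 (58.7%, beside 25.9%) in replicate 1 and 4 of 46 (8.70%, beside 34.6%) in replicate 2. The comparison of 1 ng/mL and of 10 ng/mL with vehicle share the vehicle libraries, so these counts are given as a description.

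The insulin and IGF signalling list held 60 genes with enough reads, and 0 were called. At an unadjusted p under 0.05 the list had 3 genes higher and 0 lower, beside 1.48% and 1.54% of all genes. Its median log2 fold change was 0.02, and 15 of the 60 genes (25%, beside 11.5% of all genes) were higher in 3 of 3 pairs. IGF1R (ENSBTAG00000021527), the receptor of IGF1 and IGF2, had 182, 146 and 191 CPM in the vehicle group and 202, 163 and 199 CPM at 1 ng/mL. It was higher in each pair by a small amount that the spread between replicates exceeded, with a log2 fold change of 0.12 (SE 0.0463, unadjusted p = 0.0177, adjusted p = 1.00 in edgeR's test), from 0.10 to 0.13 with 1 replicate left out. INSR (ENSBTAG00000012687), the insulin receptor, had 45.2, 35.7 and 43.8 CPM against 50.4, 34.1 and 48.1 CPM, a log2 fold change of 0.08 (SE 0.0687). IGF2R, which takes IGF2 up for breakdown, had 0.04 (SE 0.0469). AKT1S1 (ENSBTAG00000005763), an AKT substrate that restrains mTOR complex 1, had 20.4, 19.9 and 22.6 CPM in the vehicle group and 22.4, 26.3 and 28.2 CPM at 1 ng/mL. This was the largest difference of the list in that direction, at 0.28 (SE 0.0878, unadjusted p = 0.00445, adjusted p = 1.00), and 2 of the 3 libraries at 1 ng/mL stood above all vehicle libraries. The adaptor IRS1 had 0.14 (0.0758), with a difference of 0.37 in replicate 1 and of -0.01 and 0.07 in the others, and IRS2 had 0.19 (0.180). AKT1 had 0.09 (0.0499) and AKT2 had -0.02 (0.0614), while RHEB, the GTPase that switches mTOR complex 1 on, had -0.22 (0.109) and was lower in 3 of 3 pairs.

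Of the FOXO factors and the targets that insulin is known to lower, 30 were tested, with a median log2 fold change of 0.01. At an unadjusted p under 0.05, 0 were higher and 1 lower, beside 1.48% and 1.54% of all genes. The lower gene was TXNIP (ENSBTAG00000020060), an arrestin-domain protein that limits glucose uptake. It had 33.6, 44.2 and 79.5 CPM in vehicle replicates 1, 2 and 3 and 33.0, 28.3 and 59.0 CPM at 1 ng/mL. In replicate 1 both doses were nearly equal, and the difference lay in replicates 2 and 3, with -0.07, -0.64 and -0.41 in the pairs. The log2 fold change was -0.38 (SE 0.0808, unadjusted p = 0.000134, adjusted p = 0.389 in edgeR's test). Without replicate 1, the pair with nearly no difference, TXNIP was called (-0.51) in a fit with 1 residual degree of freedom. It was not called without replicate 2 (-0.27) or 3 (-0.36). It was also called when every gene with at least 1 count was tested. At 10 ng/mL it had 35.6, 38.4 and 74.3 CPM, between the other doses in replicates 2 and 3. ARRDC4, its closest relative, was looked up after TXNIP had been seen. It had 10.3, 38.2 and 45.6 CPM in the vehicle group and 12.1, 21.9 and 38.8 CPM at 1 ng/mL, with a log2 fold change of -0.35 (SE 0.114, adjusted p = 1.00), with replicate 1 in the opposite direction. PDK4, a kinase that spares glucose and a known FOXO target, had -0.20 (0.132), while FOXO1 had 0.14 (0.0703) and FOXO3 had -0.06 (0.0685).

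Of 41 genes of cholesterol and fatty acid synthesis, 1 was higher and 0 lower at an unadjusted p under 0.05, beside 1.48% and 1.54% of all genes. The list had 28 members above 0 and 13 below and a median log2 fold change of 0.01. The medians within the pairs were -0.046, 0.069 and 0.046, so that replicate 1 had the other sign. The gene counted was SREBF1 (ENSBTAG00000007884), the transcription factor of the pathway that insulin is known to raise. It had 154, 186 and 181 CPM in the vehicle group and 163, 205 and 195 CPM at 1 ng/mL, with a log2 fold change of 0.10 (SE 0.0466, unadjusted p = 0.0357, adjusted p = 1.00). FASN (ENSBTAG00000015980), the fatty acid synthase, had 884, 1091 and 1259 CPM against 953, 1165 and 1354 CPM. Its log2 fold change of 0.098 (SE 0.0423, unadjusted p = 0.0301, adjusted p = 1.00) was under the limit of 0.1 and was not counted. Both were higher in 3 of 3 pairs, by less than the spread between replicate numbers.

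Of 43 genes of glucose uptake and glycolysis, with a median of 0.01, 2 were higher and 0 lower at an unadjusted p under 0.05 (beside 1.48% and 1.54% of all genes). They were the glycogen phosphorylase PYGB (ENSBTAG00000004625), with 31.5, 32.9 and 39.6 CPM against 38.2, 39.2 and 41.2 CPM and a log2 fold change of 0.19 (SE 0.0713), and the glycogen synthase GYS1 at 0.12 (0.0546). The transporter SLC2A1 had 0.02 (0.0528). Hexokinase HK2, at 269, 143 and 108 CPM in the vehicle group and 255, 195 and 112 CPM at 1 ng/mL, had 0.13 (0.0699). It was higher mainly in replicate 2 and, of the alternatives tried, was called only when replicate 1, the pair in the other direction, was left out (0.28). A further 2 genes of this list, named after their values were seen, were called with 1 replicate left out. The transporter SLC2A3 had 1406, 510 and 436 CPM in the vehicle group and 1219, 787 and 316 CPM at 1 ng/mL, lower in replicates 1 and 3 and higher in replicate 2. Its log2 fold change was -0.018 (SE 0.110), and it was called without replicate 2 (-0.34), the pair in the other direction. PFKFB3, which makes an activator of glycolysis, had 0.095 (0.0832), and it was called without replicate 1 (0.26). Each of these calls came from a fit with 1 residual degree of freedom.

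**Figure D4:**
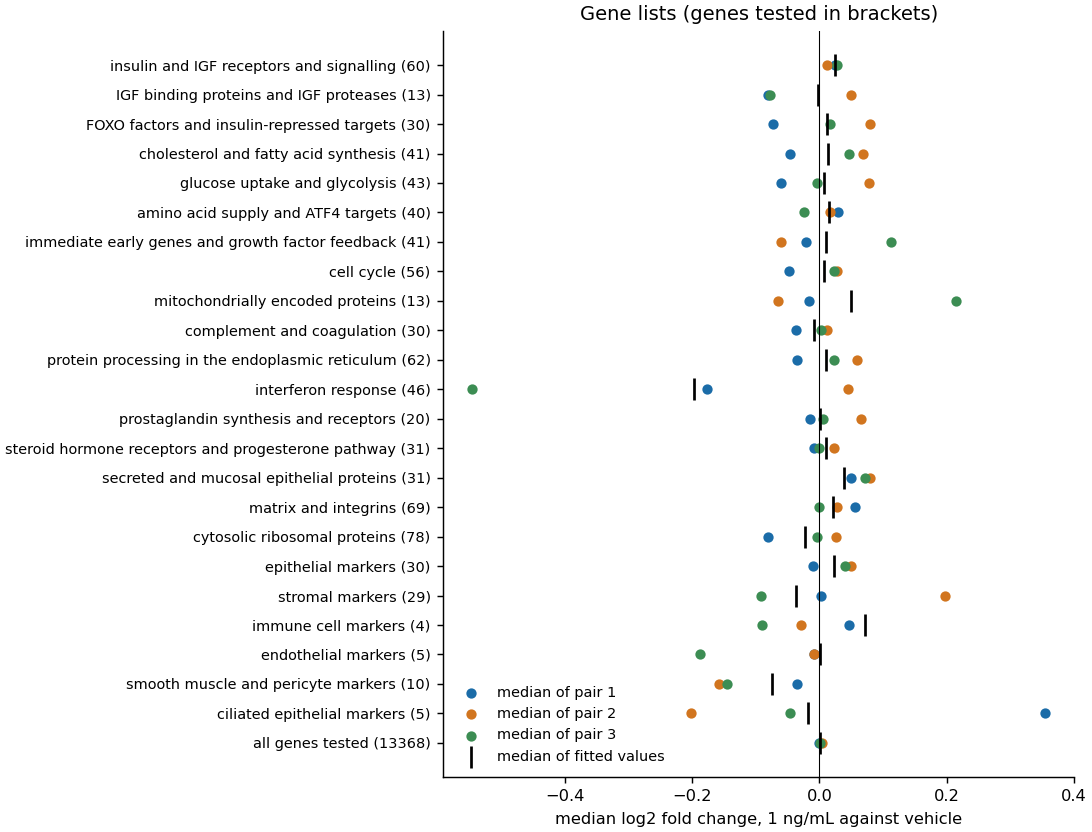
The median log2 fold change between 1 ng/mL insulin and vehicle (horizontal axis) in each gene list, with the number of genes tested in brackets, as a black tick for the fitted values and a colored point for the median within each pair. The interferon-response list stood apart at -0.20, with pair medians of -0.18, 0.05 and -0.55. The other lists had fitted medians between -0.07 and 0.07. All lists were chosen with earlier results of these data known.

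Of 13 IGF-binding protein and protease genes, STC1 (ENSBTAG00000001687), stanniocalcin, a secreted inhibitor of the protease that cleaves IGF-binding protein 4, was lower at an unadjusted p under 0.05, beside 1.54% of all genes. It had 7.84, 10.0 and 15.4 CPM in the vehicle group and 6.66, 7.11 and 12.8 CPM at 1 ng/mL, with a log2 fold change of -0.32 (SE 0.126, adjusted p = 1.00), lower in 3 of 3 pairs. The binding proteins differed little, with IGFBP3 at 0.07 (SE 0.0509), IGFBP5 at -0.08 (0.0739) and IGFBP6 at -0.06 (0.0465). IGFBP3 was higher in replicate 3 alone, with 484 CPM in vehicle and 565 CPM at 1 ng/mL.

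Among genes with a symbol, a mean of at least 5 CPM and one direction in all pairs, those with the smallest p in the higher direction were HMOX1, PTGS1, PRAG1, NUP210, ARID3B, AKT1S1, COX19, TNS4, RNF122 and PCDH1. HMOX1 (ENSBTAG00000015582), heme oxygenase, had 49.5, 41.4 and 46.1 CPM in the vehicle group and 56.7, 52.0 and 56.4 CPM at 1 ng/mL. All 3 libraries at 1 ng/mL lay above all 3 vehicle libraries, and the log2 fold change was 0.26 (SE 0.0643, unadjusted p = 0.000532, adjusted p = 1.00 in edgeR's test), from 0.23 to 0.32 with 1 replicate left out. At 10 ng/mL it had 109, 44.1 and 50.9 CPM, so that replicate 1 alone was high there. PTGS1 (ENSBTAG00000006716), cyclooxygenase 1, which makes the precursor of the prostaglandins, had 37.5, 72.5 and 68.4 CPM against 46.7, 87.9 and 74.9 CPM, a log2 fold change of 0.24 (SE 0.0585, unadjusted p = 0.000609, adjusted p = 1.00). It was higher in 3 of 3 pairs and was the 1 member of 20 prostaglandin genes with an unadjusted p under 0.05, beside 1.48% of all genes in that direction. PRAG1, NUP210, TNS4 and PCDH1 were at 0.21 (0.0538), 0.18 (0.0541), 0.15 (0.0481) and 0.15 (0.0478). ARID3B and COX19, a copper carrier for cytochrome c oxidase assembly, were at 0.46 (0.141) and 0.28 (0.0868), and RNF122 at 0.22 (0.0739). The largest folds among genes with a symbol, a mean of at least 5 CPM and one direction in all pairs were those of ARID3B, EXOG (0.40), ZCCHC4 (0.38), AGTPBP1 (0.37) and C11H2orf42 (0.37). All were at low levels, with means over the 6 libraries from 5.03 to 8.63 CPM.

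In the lower direction, the 10 genes with the smallest p by the same rule (a symbol, a mean of at least 5 CPM and one direction in all pairs) were OAS1X, IFIT5, RSAD2, EIF2AK2 and IFIT2 of the interferon response, and TXNIP, CAPN6, CYP1A1, MYLK and the small nuclear RNA RF00004. CYP1A1 (ENSBTAG00000001021), a cytochrome P450 of the aryl hydrocarbon response, had 1.41, 7.96 and 10.1 CPM in the vehicle group and 0.696, 5.01 and 7.56 CPM at 1 ng/mL, with a log2 fold change of -0.56 (SE 0.177, adjusted p = 1.00). CAPN6 had -0.54 (0.163) at 1.23 to 15.6 CPM. Both were lower in 3 of 3 pairs. The largest folds by the same rule were those of RSAD2, OAS1X, IFIT2, CYP1A1 and CAPN6. Of 25 small nuclear RNAs tested, 6 were lower and 1 higher at an unadjusted p under 0.05, beside 1.54% and 1.48% of all genes. Of these 7, 3 were labelled RF00004 and 2 RF00015, and reads that matched several copies were not counted, so the level of each is uncertain. RF00004 (ENSBTAG00000050956), with 44.1, 85.8 and 63.3 CPM against 42.6, 68.7 and 52.7 CPM, had -0.23 (SE 0.0620). Another RF00004 copy (ENSBTAG00000050245) had 0, 0.103 and 93.0 CPM against 0.0994, 0 and 72.2 CPM, so nearly all its reads came from replicate 3. RF00003, RF00026 and the RF00004 copy ENSBTAG00000052292 were at low levels, with means over the 6 libraries of 0.97, 1.26 and 1.27 CPM.

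Of the genes without a symbol, ENSBTAG00000050618 and ENSBTAG00000052092, both protein coding, had the smallest p in the higher direction. The latter is the only gene that the study reports as changed in epithelial cells by this dose against vehicle. It was not called here, at an adjusted p, in edgeR's quasi-likelihood test or in the Wald test of DESeq2. Its unadjusted p in edgeR's test was 0.000145. The study states a cut at p under 0.05 and a log2 fold change beyond 0.1, without saying whether that p was adjusted. The unadjusted edgeR values pass that cut, so the 2 results are not in conflict on that reading. ENSBTAG00000052092 had 33.5, 146 and 216 CPM in the vehicle group and 45.3, 176 and 235 CPM at 1 ng/mL. ENSBTAG00000050618 had 26.9, 96.7 and 162 CPM against 33.2, 122 and 184 CPM. Both differed more between replicate numbers than between doses, and both were higher in 3 of 3 pairs. The log2 fold changes were 0.25 (SE 0.0537, adjusted p = 0.389) and 0.27 (SE 0.054, adjusted p = 0.389 in edgeR's test). At 10 ng/mL, ENSBTAG00000052092 had 37.1, 143 and 235 CPM and ENSBTAG00000050618 had 30.4, 100 and 191 CPM, so that in both genes replicates 1 and 2 were lower than at 1 ng/mL. In the lower direction, ENSBTAG00000047286 had -0.45 (SE 0.102, adjusted p = 0.517) and ENSBTAG00000034496 had -0.33 (SE 0.0980, adjusted p = 1.00).

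**Figure D5:**
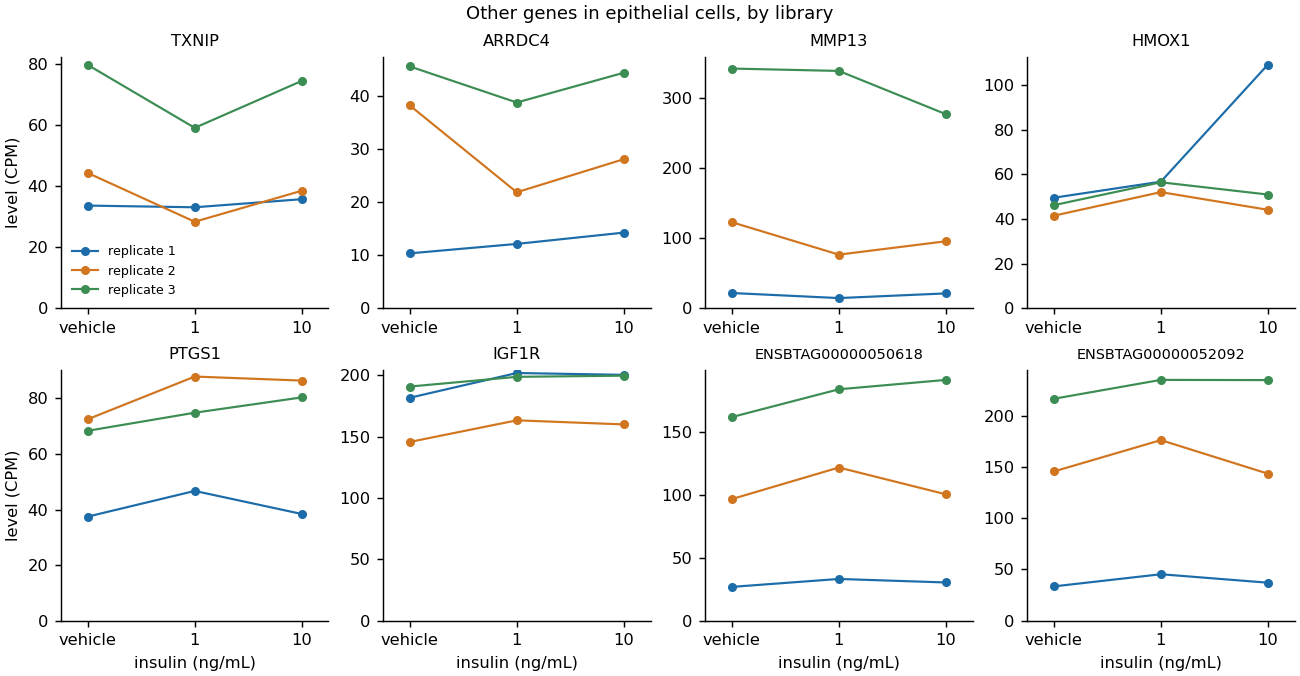
The level (CPM, axis from 0) of 8 further genes in the 9 epithelial libraries, in vehicle and at 1 and 10 ng/mL insulin, with 1 line for each replicate number. HMOX1, PTGS1, IGF1R, ENSBTAG00000050618 and ENSBTAG00000052092 were higher at 1 ng/mL than in vehicle in each replicate, TXNIP was lower in each, and ARRDC4 and MMP13 had 1 replicate in the other direction or at no difference.

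Other genes that the insulin comparisons of the study name were also looked up. The study reports none of them for epithelial cells at the lower dose against vehicle. It names MMP13, CEBPB, NR4A2, FN1, FTH1, MT-ND2, MT-ND3, ND5, MT-ATP8 and MT-CYB for epithelial cells at the higher dose. It names ARAF, RPS27A, MT-ND4L and MT-ND6 for stromal cells at the lower dose, and STRA6 for stromal cells at the higher dose. The values below are from epithelial cells at the lower dose, so they do not test those reports. MMP13 (ENSBTAG00000015059), a collagenase, had 21.7, 123 and 342 CPM in the vehicle group and 14.5, 76.5 and 339 CPM at 1 ng/mL. It was lower in replicates 1 and 2 and equal in replicate 3, with a log2 fold change of -0.33 (SE 0.0899, unadjusted p = 0.00145, adjusted p = 1.00 in edgeR's test). It was called without replicate 3 (-0.67), the pair with no difference, and without replicate 1 (-0.28), in fits with 1 residual degree of freedom. It was also called when every gene with at least 1 count was tested, and was at -0.11 without replicate 2. CEBPB, a transcription factor, had 17.5, 10.5 and 15.9 CPM against 11.5, 7.82 and 27.5 CPM, a log2 fold change of 0.02 (SE 0.178), and NR4A2 had 13.2, 19.3 and 14.1 CPM against 12.1, 11.2 and 18.9 CPM, a log2 fold change of -0.15 (SE 0.150). In both, replicate 3 was higher at 1 ng/mL and the others lower. FN1, FTH1, ARAF, RPS27A and STRA6 lay between -0.07 and 0.00 on the log2 scale. The 13 mitochondrially encoded proteins, subunits of the respiratory chain, had a median of 0.05, with 0 past an unadjusted p of 0.05 and pair medians of -0.02, -0.06 and 0.22. MT-ND3 had 77.9, 114 and 76.6 CPM in the vehicle group and 74.1, 99.0 and 108 CPM at 1 ng/mL. In MT-ND3, MT-ND2 (0.05), MT-ATP8 (0.09), ND5 (0.06) and MT-CYB (0.07), the pair difference was above 0 in replicate 3 alone, and the fold changes were below 0 when replicate 3 was left out. MT-ND6, which is read from the other strand, had -0.05 (SE 0.0681), with pair differences of 0.14, -0.34 and 0.066. MT-ND4L and MT-ATP8 overlap their neighbors, so that the assignment of their reads is uncertain.

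The lists of what the epithelium makes and secretes lay near 0. Of 31 secreted and mucosal proteins, 2 were higher and 0 lower at an unadjusted p under 0.05 and the median was 0.04. The membrane mucin MUC13 had 15.2, 33.6 and 64.5 CPM against 18.7, 34.7 and 72.6 CPM, a log2 fold change of 0.16 (SE 0.0722). Of 62 genes of protein processing in the endoplasmic reticulum, 3 were higher and 0 lower, with a median of 0.01. These were the chaperones HYOU1, at 233, 189 and 159 CPM in the vehicle group and 268, 202 and 173 CPM at 1 ng/mL (0.14, SE 0.0455), and HSPA5 (0.11, SE 0.0441), and the lectin EDEM1 (0.14, SE 0.0484), each higher in 3 of 3 pairs. Of 69 matrix and integrin genes, 5 were higher and 2 lower, with a median of 0.02. Of 31 steroid receptor genes, PAQR5, a membrane progestin receptor, was higher at an unadjusted p under 0.05 (0.35, SE 0.152), with replicate 1 in the other direction. The complement and coagulation list (30 genes) had 1 higher and 1 lower, both under 3 CPM, with THBD at 1.07 (SE 0.443) and C4A at -0.75 (SE 0.337). The 41 immediate early genes had 1 lower, JUN at -0.13 (SE 0.0622), and the 56 cell cycle genes had 1 lower, PRC1 at -0.18 (SE 0.0825). In the amino acid supply list (40 genes) and the cytosolic ribosomal proteins (78 genes), 0 genes passed an unadjusted p of 0.05, and the medians were 0.02 and -0.02. Beside each of these lists, 1.48% of all genes were higher and 1.54% lower at that p.

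The marker lists were counted in the same way, beside 1.48% of all genes higher and 1.54% lower at an unadjusted p under 0.05. Of the 30 epithelial markers, 11 (36.7%, beside 11.5% of all genes) were higher in 3 of 3 pairs, RAB25 at 0.18 (SE 0.0617) being the 1 with an unadjusted p under 0.05, and the median was 0.02. Of 29 stromal markers tested, PDGFRA was lower and COL6A3 and MMP2 were higher at that p. PDGFRA had 22.3, 13.7 and 111 CPM against 23.2, 13.9 and 77.5 CPM, so that its log2 fold change of -0.26 (SE 0.0897) came from replicate 3, and it was 0.013 without that replicate. Of 10 smooth muscle and pericyte markers, 4 were lower at an unadjusted p under 0.05 (beside 1.54% of all genes), namely MYLK, TAGLN, ACTG2 and ACTA2. MYLK (ENSBTAG00000014567), the myosin light chain kinase, had 17.6, 8.99 and 39.7 CPM in the vehicle group and 15.1, 7.90 and 30.4 CPM at 1 ng/mL, with a log2 fold change of -0.29 (SE 0.0931, adjusted p = 1.00). The sum of this list was 546, 137 and 639 CPM in the vehicle libraries and 552, 119 and 559 CPM at 1 ng/mL, with 4629 to 7091 CPM in stromal cells. The part of contractile stromal cells in these differences was not tested. Endothelial markers summed to 48.5 to 131 CPM and ciliated cell markers to 16.4 to 32.1 CPM, and 0 of these genes passed an unadjusted p of 0.05.

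The other members with the smallest p of their list and direction did not reach an unadjusted p of 0.05. GPT2, an aminotransferase, and the signalling inhibitor SPRED1 had log2 fold changes of 0.12 (SE 0.0653) and 0.14 (0.0759). The glycine transporter SLC6A9 had -0.12 (0.0798), the coat protein SEC23A of export from the endoplasmic reticulum -0.10 (0.0511), and the ribosomal protein RPL22 -0.11 (0.0516), each lower in 3 of 3 pairs. PLA2G4A, the phospholipase that releases arachidonic acid, had -0.11 (0.0563), and the sterol enzyme SC5D had -0.078 (0.0491). The fructose transporter SLC2A5 (ENSBTAG00000034323) and the retinol carrier RBP4 had -0.32 (0.175) and -0.21 (0.178), and the splicing regulator ESRP2 had -0.077 (0.0602). A further gene labelled SLC2A5, ENSBTAG00000007302, lay between -0.13 and -0.097 with 1 replicate left out. RPS28, a further ribosomal protein, had 0.050 (0.0482), and CSPG4, a pericyte marker, had 0.23 (0.155). VIM, the intermediate filament of stromal cells, had -0.055 (0.0450) at 573 to 702 CPM. E2F2, CD68, CD14, PECAM1, ESAM, RSPH1 and CCDC39 had means of 0.76 to 3.06 CPM, and their fold changes lay between -0.47 and 0.66 with SE of 0.223 to 0.422.

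The same dose in stromal cells was used to ask whether the differences were particular to epithelial cells. The test of the difference between both effects covered 14259 genes and called 84 (0.589%), 82 of them with the higher fold change in epithelial cells. In 82 of the 84 genes, the vehicle library of replicate 2 was the highest of the 3 stromal vehicle libraries, and 18 of the 84 were epithelial markers. That stromal library held 503 CPM of epithelial markers, against 51.8 to 61.5 CPM in the other 5 stromal libraries, and without replicate 2 the test called 3 genes. Of the interferon-response genes, 0 were called in the test with all replicates, and the 30 with enough reads in stromal cells had a median log2 fold change of 0.03 there. The epithelial median of -0.20 covers 46 members, so these medians are of unlike sets of genes. OAS1X differed by an adjusted p of 0.256 and IFIT5 by an adjusted p of 0.349 in edgeR's test, so that a difference of these effects between the cell types was not shown with all replicates. OAS1X, RSAD2 and IFIT2 had too few reads to be tested in stromal cells alone, so their differences rest on few stromal reads. Without replicate 2, IFIT1 was among the 3 genes called, with a log2 difference of -1.21 between the effects (adjusted p = 0.00274). Of the genes called without replicate 3, 2 of 158 were on the list, and without replicate 1, 0 of 68 were. When every gene with at least 1 count was tested, 6 of 294 were.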

How the data were processed

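Total RNA of epithelial and stromal cells was sequenced as stranded libraries with 75 bp single-end reads. After trimming (Cutadapt) and quality filtering (FASTX-Toolkit), the authors mapped the reads by Rsubread on the bovine assembly of Ensembl release 96, kept uniquely mapped reads, and counted them per gene with featureCounts. The deposited values are raw counts on 27607 genes, without normalization. The symbols and gene types came from the authors' deposited comparison tables. These hold DESeq2 fold changes and p-values, which were not used. Versions of these tools are not given in the sources used here.

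In R 4.3.3, the counts were normalized with TMM, filtered with filterByExpr and tested with the quasi-likelihood test of edgeR 4.0.16, with the replicate number as a block and Benjamini-Hochberg adjustment over all genes tested. A gene was called at an adjusted p under 0.05 with a log2 fold change beyond 0.1. DESeq2 1.42.0 was an alternative. Fold changes are 1 ng/mL against vehicle, and pair differences used log2 CPM with a prior count of 2. The SE was derived from the fold change and the test statistic, so it too holds spread borrowed from other genes. CPM is not corrected for gene length, so levels were compared only within a gene. The effects in both cell types were compared in one fit with the replicate number within each cell type as a block.

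The pairing comes from the study's paired design. The deviations of same-numbered libraries from their group means correlated at 0.769, 0.82 and 0.842, and those of other pairings were below 0. Deviations of 3 libraries from their own mean sum to 0 in each gene. The negative values of the other pairings are therefore no separate evidence for the pairing. The fits were tested on simulated counts. The comparison, the gene lists and the named genes were chosen with earlier results of these data known. Named genes were any genes called, the 10 smallest p and the 5 largest folds in each direction among genes with a symbol, a mean of at least 5 CPM and one sign in 3 pairs, the genes the study names, fixed insulin pathway genes, the smallest p in each list and direction, and at most 2 genes without a symbol in each direction. Alternatives changed the normalization, test, filter, block, prior count and libraries. The values of some of these genes are not reported here.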

Additional observations from a re-analysis of the deposited data

Results flagged for a closer look

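Of the named genes, 6 had a different effect of 1 ng/mL insulin in epithelial and in stromal cells in edgeR's test of the difference. The log2 difference, epithelial minus stromal, was 4.36 for MUC13, 5.00 for KRT18, 5.13 for TNS4, 3.88 for NUP210, 6.59 for ENSBTAG00000050618 and 5.27 for ENSBTAG00000052092, with adjusted p from 0.000577 to 0.035. Each of the 6 was higher in the stromal vehicle library of replicate 2, at 2.08 to 34.4 CPM, than in the other 5 stromal libraries, at 0 to 0.787 CPM. That library also held 503 CPM of epithelial markers, and the part of epithelial cells in it was not tested. Without replicate 2, the differences of MUC13, KRT18, TNS4 and ENSBTAG00000052092 were 0.09, -0.17, -0.15 and 0.23, those of NUP210 and ENSBTAG00000050618 were 1.72 and 2.46, and none of the 6 was called.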

How the results depend on the processing

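No gene was called with DESeq2 size factors, the DESeq2 Wald test, a minimum mean of 5 CPM, all 9 epithelial insulin libraries, or no replicate block, while testing every gene with at least 1 count called 22, and leaving out 1 replicate called 6 to 33 (25, 33 and 6 without replicate 1, 2 and 3). A fit with 1 replicate left out has 1 residual degree of freedom, against 2 with all. The prior degrees of freedom that edgeR estimated over genes were 19.3 with all replicates, 16.6 with the minimum mean, 215 and 65.7 without replicate 2 and 3, and infinite without replicate 1 and with every gene, and the cause of the calls was not tested. Genes at an unadjusted p under 0.05 numbered 404, with 14 by DESeq2, 18 without the replicate block, and 482 to 672 with 1 replicate left out. For the difference between cell types, 84 calls became 26 with DESeq2, 294 with every gene, 0 without the replicate block, and 3 to 158 with 1 replicate left out. The distances within a number and within a dose were 0.321 and 0.736 with a prior count of 0.5, and 0.176 and 0.509 with a mean of at least 5 CPM. With 1 replicate left out they were 0.260 to 0.275 and 0.610 to 0.729. In each case the first was the smaller. With DESeq2, CEBPB was at -0.088 and STRA6 at 0.0030. Leaving out 1 replicate turned the direction of these genes, none of them called with all replicates. The ranges of their log2 fold changes over these fits were -0.16 to 0.052 for FOXO3, -0.040 to 0.0030 for AKT2, -0.14 to 0.20 for ESAM, -0.49 to 0.16 for NR4A2, -0.15 to 0.10 for MT-ND6, -0.068 to 0.11 for SLC2A1, -0.11 to 0.13 for KRT18, -0.035 to 0.28 for HK2, -0.27 to 0.0058 for CCDC39, -0.025 to 0.13 for IGFBP3, -0.56 to 0.36 for CEBPB, -0.051 to 0.076 for STRA6, -0.059 to 0.13 for MT-ND2, -0.11 to 0.21 for MT-ATP8, -0.16 to 0.21 for MT-ND3, -0.044 to 0.14 for MT-ND4L, -0.048 to 0.14 for ND5, -0.034 to 0.14 for MT-CYB, -0.042 to 0.46 for IRS2 and -0.35 to 0.013 for PDGFRA. With 9678779 to 12754316 reads in a library, the SE was 0.422 for ESAM, at a mean of 0.76 CPM, and 0.0463 for IGF1R, at 146 to 202 CPM.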
